A study of Cavia porcellus with 10 samples.

Results

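Heat shock chaperones were followed as transcripts in whole sclera, the tough white wall of the eye. The set was named by 10 gene symbols: HSP90AA1, HSP90AB1, HSPA8, HSPA1A, HSPA1B, HSPH1, HSPA4, DNAJB1, BAG3 and HSPB1. Lines of the count table were matched to these symbols ignoring case, and where a symbol stood on several lines the one with the highest mean count was taken. A line was found for 9 of the 10, all 9 passed the filter on low counts, and they stand among 14683 genes tested. No line matched HSPA1A, which is not analysed here.

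Libraries came from male guinea pigs (Cavia porcellus) aged 2 to 3 weeks. In the myopia group lenses that make the eye nearsighted were worn on both eyes, and the control group was left untreated. There were 5 libraries of total RNA per group. Which eyes came from the same animal is not stated, and a p-value here reflects only how these libraries spread, which may be less than animals do.

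Heat shock proteins are molecular chaperones, which bind unfolded proteins and help them reach or regain their shape. HSP70 proteins work in a cycle driven by ATP: J-domain proteins such as DNAJB1 deliver clients and start ATP hydrolysis, and nucleotide exchange factors such as HSPH1, HSPA4 and BAG3 let the client go. HSP90 proteins act later on clients such as kinases and steroid receptors, and small heat shock proteins such as HSPB1 hold unfolding proteins without using ATP. Under heat or proteotoxic stress the transcription factor HSF1 raises many of these genes at once, HSPA1A, HSPA1B and DNAJB1 steeply, whereas HSPA8 and HSP90AB1 are made at a high level in unstressed cells.

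The 9 measured chaperones did not move in one direction in the myopic sclera. HSPH1, HSP90AA1 and HSPA8 rose, by 1.95-fold, 1.84-fold and 1.56-fold. HSPB1 and DNAJB1 fell, to 0.383 and 0.552 times the control level. HSP90AB1 and BAG3 were also lower, by smaller amounts that turned positive and no longer passed under total count scaling. HSPA1B and HSPA4 did not pass the test. All values are from edgeR's quasi-likelihood test with Benjamini-Hochberg adjustment over all genes and a threshold of 0.05.

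The share of members called was near that of all genes. In all, 7 of 9 members passed (77.8%), where 71.9% of the 14683 genes tested did. Of the members, 3 were higher and 4 lower, beside 36.9% of all genes higher and 35.1% lower. With total count scaling 4 members were higher and 2 lower, and of all genes 7631 were higher and 2752 lower, against 5412 and 5149 with TMM factors. With RLE factors all 9 members passed, 3 higher and 6 lower, while 10569 of all genes passed. Groups did not overlap for 5 of the 9 members, of which 2 were higher and 3 lower in every myopia library, while 57.8% of all genes tested showed such a separation in either direction. The median log2 fold change of the members was -0.24 and that of all genes tested 0.03; with total count scaling they were 0.20 and 0.47.

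Total counts on lines with a gene symbol ran from 32050523 to 33774373 in myopia and from 32184816 to 34869826 in control. Levels are given in CPM, counts relative to the library's total scaled with TMM factors, which lay between 1.11 and 1.25 in myopia and between 0.777 and 0.968 in control. The tissue label was checked with 10 genes of scleral fibroblasts, COL1A1, COL1A2 and DCN among them. They summed to between 70690 and 96120 CPM in myopia and between 125400 and 156500 CPM in control. Of them 2 rose, 4 fell and none was at 0. COL1A1 and COL1A2 held most of this sum, and COL1A1 made most of its difference between the groups. Mean levels of DCN, LUM and PDGFRA were higher in myopia, and those of the other markers were lower. The sum therefore does not measure the number of fibroblasts, and a change in that number was not tested. Control libraries 4 and 5 stood nearest to the myopia libraries on the first principal component, which held 77.1% of the variance, so each member is also given without them. Scaling by total count moved the median log2 fold change of all genes tested to 0.47, and higher and lower are therefore meant on the TMM scale unless another is named. In whole tissue, fewer cells of a type and less RNA per cell cannot be told apart.

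**Figure D1:**
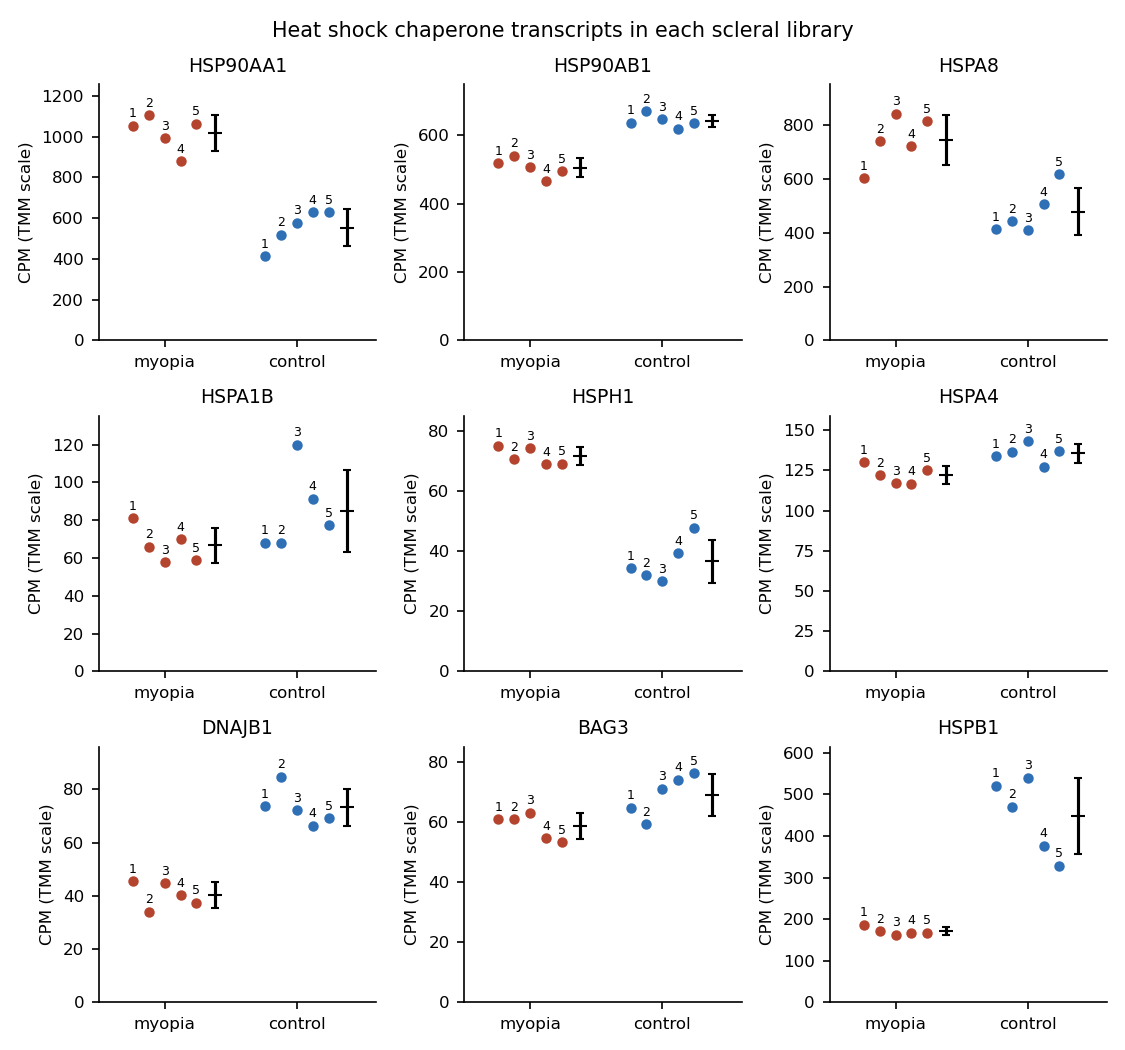
Level of each of the 9 chaperone transcripts in CPM (TMM scale, vertical axes from 0) in the 5 myopia libraries (red) and the 5 control libraries (blue), numbered as in the labels, with the mean and SD in black. HSP90AA1 and HSPH1 lie higher in all myopia libraries, DNAJB1, HSPB1 and, on this scale but not with total count scaling, HSP90AB1 lie lower in all of them, and the groups overlap for the other 4.

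The cytosolic HSP90 pair diverged. HSP90AA1, the stress-inducible form, had 1053, 1106, 993, 879 and 1063 CPM in myopia libraries 1 to 5, against 412, 519, 577, 630 and 628 CPM in control libraries 1 to 5. Every myopia library was above every control library, and control 1 was the lowest of all. Means were 1019 ± 87.7 CPM in myopia and 553 ± 90.9 CPM in control (SD, n = 5 each), a log2 fold change of 0.88 ± 0.13 (SE; adjusted p = 3.72e-05). Without control libraries 4 and 5 it was 1.03.

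HSP90AB1, the constitutive form, had 519, 541, 508, 466 and 496 CPM in myopia, against 638, 671, 647, 620 and 636 CPM in control. The groups did not overlap, and the control libraries spread least of any member, with a coefficient of variation of 2.89%. Its log2 fold change was -0.34 ± 0.09 (adjusted p = 0.00262). This fall rests on the scaling: with total count alone the value was 0.10 (adjusted p = 0.244), and the raw counts ran from 18850 to 19959 in myopia and from 16168 to 19818 in control.

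A second line of the table also carries the symbol HSP90AA1. It held 0.632% of the counts of the pair of lines in myopia and 0.568% in control, and its log2 fold change was 1.06 ± 0.30 (adjusted p = 0.00671). The table does not say how the lines differ.

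Of the HSP70 proteins proper, HSPA8 rose and HSPA1B did not pass. HSPA8, the constitutive cognate HSC70, had 605, 740, 843, 723 and 815 CPM in myopia, against 414, 444, 411, 507 and 618 CPM in control. One crossing kept the groups from separating: control 5 stood above myopia 1. Means were 745 ± 93.0 CPM in myopia and 479 ± 86.8 CPM in control (SD, n = 5 each), and the log2 fold change was 0.64 ± 0.14 (adjusted p = 0.000825), or 0.83 without control libraries 4 and 5.

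HSPA1B, a strongly stress-inducible HSP70, had 81.1, 66.0, 57.8, 69.9 and 58.9 CPM in myopia, against 68.2, 68.1, 120.0, 91.4 and 77.3 CPM in control. The groups overlapped, and control 3 was the highest library. The log2 fold change was -0.35 ± 0.15 (adjusted p = 0.0567). It was -0.18 without control 3 (adjusted p = 0.211). It passed when control 1 (-0.41, adjusted p = 0.0336), control 2 (-0.41, adjusted p = 0.0341) or myopia 1 (-0.43, adjusted p = 0.0314) was left out. In all it passed as lower under 7 of the 23 other settings, among them RLE factors (-0.37, adjusted p = 0.0432) and DESeq2 (-0.37, adjusted p = 0.0356). With total count scaling it was 0.10 (adjusted p = 0.633).

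In mammals HSPA1A and HSPA1B encode nearly identical proteins from neighbouring genes, so reads of this pair can be shared between them, and the HSPA1B value is uncertain for that reason. The symbol HSPA1B stands on a second line as well. That line had 22.1 to 28.1 CPM in myopia and 27.4 to 39.9 CPM in control, and its log2 fold change was -0.37 ± 0.12 (adjusted p = 0.0152). It held 27.5% of the counts of the HSPA1B lines in myopia and 27.8% in control, so the split between the lines was close in both groups. With both lines summed, the log2 fold change was -0.34 and passed (adjusted p = 0.0342).

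The larger HSP70 relatives HSPH1 and HSPA4, both of the HSP110 family and both exchange factors for HSP70, also differed from each other. HSPH1 had 75.2, 70.8, 74.5, 69.1 and 69.2 CPM in myopia, against 34.4, 32.0, 30.0, 39.3 and 47.9 CPM in control. All myopia libraries were above all controls and lay close together, with a coefficient of variation of 4.07% beside 19.5% in control. HSPH1 had the highest log2 fold change of the 9, 0.97 ± 0.12 (adjusted p = 8.07e-06), and 1.17 without control libraries 4 and 5.

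HSPA4 had 130.0, 122, 117, 117 and 125 CPM in myopia, against 134, 137, 143, 127 and 137 CPM in control. The groups overlapped through myopia 1 and control 4. Its log2 fold change of -0.15 ± 0.07 was the smallest of the set on the TMM scale and did not pass (adjusted p = 0.078). The value was positive with total count scaling (0.30) and passed there (adjusted p = 0.00553), while it passed as lower with RLE factors (-0.17, adjusted p = 0.0492), DESeq2 (-0.17, adjusted p = 0.0174), quality weights (-0.16, adjusted p = 0.0381) and without control libraries 4 and 5 (-0.16, adjusted p = 0.0486).

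DNAJB1, the J-domain partner that in human cells delivers clients to HSP70, fell. It had 45.6, 34.1, 44.9, 40.2 and 37.4 CPM in myopia, against 73.6, 84.8, 72.2, 66.3 and 69.3 CPM in control. The lowest control stood clear of the highest myopia library. The log2 fold change was -0.86 ± 0.10 (adjusted p = 6.57e-06). It passed as lower under each of the 23 other settings, the weakest being total count scaling, at -0.40 (adjusted p = 0.00419).

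BAG3, an exchange factor that links HSP70 to small heat shock proteins and to selective autophagy, had 61.0, 60.9, 63.1, 54.5 and 53.4 CPM in myopia, against 64.7, 59.2, 71.1, 74.0 and 76.2 CPM in control. The groups overlapped, since control 2 lay below 3 of the myopia libraries. The log2 fold change of -0.24 ± 0.09 passed (adjusted p = 0.0313), but the call ended under 10 of the 23 other settings. Among these were upper quartile factors (-0.17, adjusted p = 0.134), total count scaling (0.20, adjusted p = 0.137) and the fit without control libraries 4 and 5 (-0.14, adjusted p = 0.168). Leaving out a single library ended it for control 3, control 4 and control 5 (-0.22, -0.20 and -0.19; adjusted p = 0.0699, 0.0884 and 0.072). The same held for myopia 4 and myopia 5 (-0.21 and -0.20; adjusted p = 0.0714 and 0.0814).

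HSPB1 (HSP27, spelled Hspb1 in the table), a small heat shock protein that also binds actin filaments, showed the largest difference of the 9 on the TMM scale; with total count scaling those of HSPH1, HSP90AA1 and HSPA8 were larger. It had 187, 170.4, 163, 168 and 167 CPM in myopia, against 521, 470.3, 540, 377 and 328 CPM in control. The highest myopia library was far below the lowest control, and the controls spread more (coefficient of variation 20.5%) than the myopia libraries (5.41%). Means were 171 ± 9.26 CPM in myopia and 447 ± 91.7 CPM in control (SD, n = 5 each), and the log2 fold change was -1.39 ± 0.13 (adjusted p = 1.40e-06). It was -0.92 with total count scaling and -1.56 without control libraries 4 and 5.

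**Figure D2:**
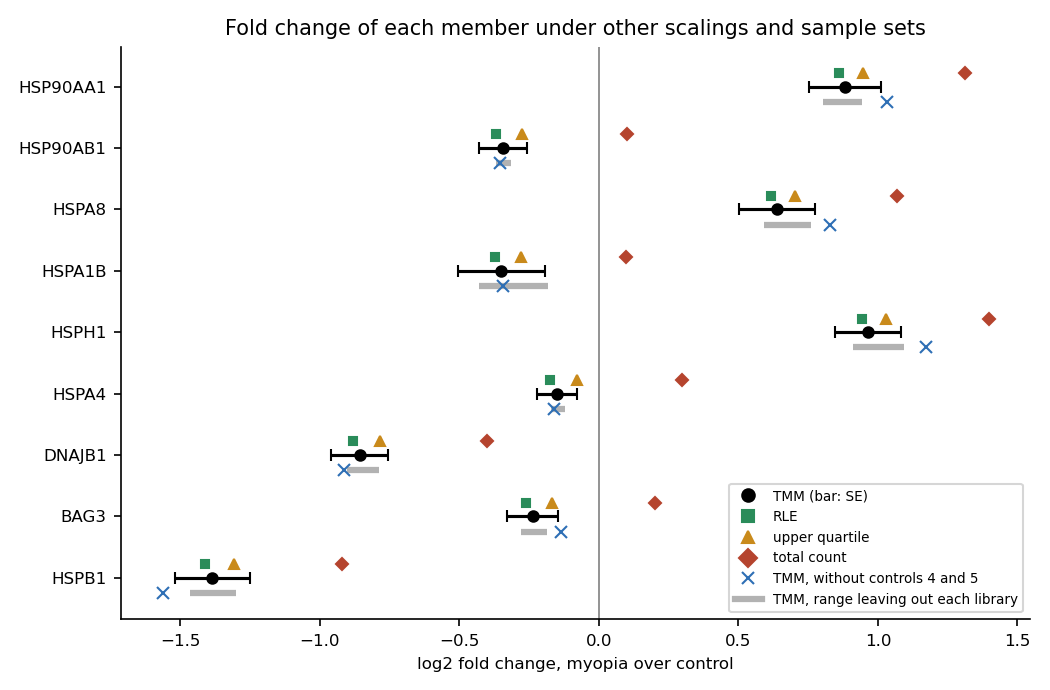
Log2 fold change, myopia over control, of each member with TMM factors (black, bar = SE, n = 5 per group), with RLE, upper quartile and total count scaling, without controls 4 and 5, and as a range over fits that leave out 1 library (grey). HSP90AA1, HSPA8 and HSPH1 stay right of 0 and DNAJB1 and HSPB1 left of it at every mark, while HSP90AB1, HSPA1B, HSPA4 and BAG3 cross to the right with total count scaling.

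The call and direction of 5 members held under all 23 other settings: HSP90AA1, HSPA8 and HSPH1 as higher, DNAJB1 and HSPB1 as lower. Their log2 fold changes ranged from 0.80 to 1.31 for HSP90AA1, from 0.59 to 1.07 for HSPA8 and from 0.91 to 1.40 for HSPH1. For DNAJB1 the range was -0.91 to -0.40, and for HSPB1 -1.56 to -0.92. The members whose direction turned with total count scaling were HSP90AB1, HSPA1B, HSPA4 and BAG3.

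The untreated eyes also differed among themselves. Control libraries 4 and 5 were set apart because they lay nearest to the myopia libraries over all genes, so a shared sign in members that differ strongly between the groups follows largely from that choice. On a log2 scale, the mean of control libraries 4 and 5 over that of control libraries 1 to 3 was 0.44 for HSPH1, 0.41 for HSPA8, 0.32 for HSP90AA1 and -0.53 for HSPB1, each with the sign of the difference between myopia and control. For DNAJB1 it was -0.18, also of that sign. It was 0.21 for BAG3, the opposite sign, and near 0 for HSPA1B (-0.02), HSP90AB1 (-0.05) and HSPA4 (-0.06). The labels do not say how these control eyes differ, and the part this variation has in the group differences was not tested.

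Count ratios within a library do not depend on the scaling factors. In all, 5 such ratios were formed, pairing members by family or by partnership; the pairs were chosen after the values had been seen, and each was tested with a 2-sided exact permutation test on its log2, which for 5 against 5 libraries cannot go below 0.00794. The count ratio HSP90AA1/HSP90AB1 was 2.01 ± 0.096 in myopia and 0.863 ± 0.153 in control (SD, n = 5 each; exact p = 0.00794, adjusted p = 0.00992 over the 5 ratios). It ran from 1.89 to 2.14 in myopia and from 0.646 to 1.02 in control, with no overlap.

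HSPH1/HSPA4 was 0.588 ± 0.030 in myopia and 0.272 ± 0.057 in control (exact p = 0.00794, adjusted p = 0.00992), with no overlap. HSPA8/HSPA1B was 11.5 ± 2.85 in myopia and 5.91 ± 1.66 in control (exact p = 0.0159, adjusted p = 0.0159), and here the lowest myopia library, at 7.46, was below the highest control, at 7.99. Since the pairs were chosen with the values known, these tests restate differences between the members and are not independent evidence. The HSPA1B value behind HSPA8/HSPA1B did not pass on its own and is uncertain.

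HSPA8/DNAJB1, a chaperone set against a J-domain partner, was 18.7 ± 3.48 in myopia and 6.62 ± 1.59 in control, a log2 difference of 1.51 (exact p = 0.00794, adjusted p = 0.00992). BAG3/HSPB1, whose proteins work together, was 0.343 ± 0.029 in myopia and 0.162 ± 0.049 in control (exact p = 0.00794, adjusted p = 0.00992). Both separated the groups completely. Without control libraries 4 and 5 the log2 differences of the 5 ratios were larger, from 1.12 for HSPA8/HSPA1B to 1.74 for HSPA8/DNAJB1. Those controls were set apart for lying nearest to the myopia libraries, so this widening follows largely from that choice and from the choice of pairs.

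**Figure D3:**
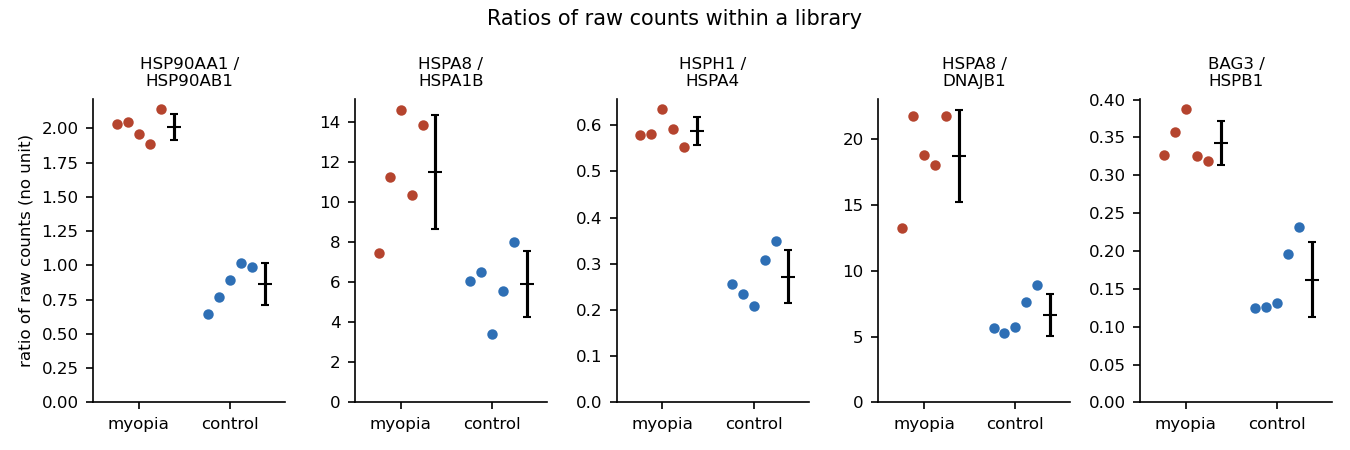
Ratio of raw counts (no unit, axes from 0) of a pair of members within each of the 5 myopia (red) and 5 control (blue) libraries, with mean and SD in black. All myopia libraries exceed all controls in 4 of the 5 ratios, and HSPA8/HSPA1B overlaps between 7.46 and 7.99.

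The 9 genes together held 0.320%, 0.322%, 0.331%, 0.324% and 0.339% of the counts in myopia libraries 1 to 5, against 0.183%, 0.202%, 0.221%, 0.224% and 0.253% in control libraries 1 to 5. The mean share was 1.51 times as high in myopia. On the TMM scale the difference was smaller, with sums of 2801 ± 133 CPM in myopia and 2521 ± 106 CPM in control (SD, n = 5 each), 1.11 times, and the groups overlapped. The shares of single genes within the sum also differed. HSP90AA1 held 36.4 ± 1.92% of the counts of the 9 genes in myopia and 21.9 ± 2.91% in control, and HSPA8 26.6 ± 2.98% and 19.0 ± 3.01%. HSPB1 held 6.12 ± 0.483% in myopia and 17.8 ± 4.00% in control. These are shares of reads, which also depend on transcript length.

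**Figure D4:**
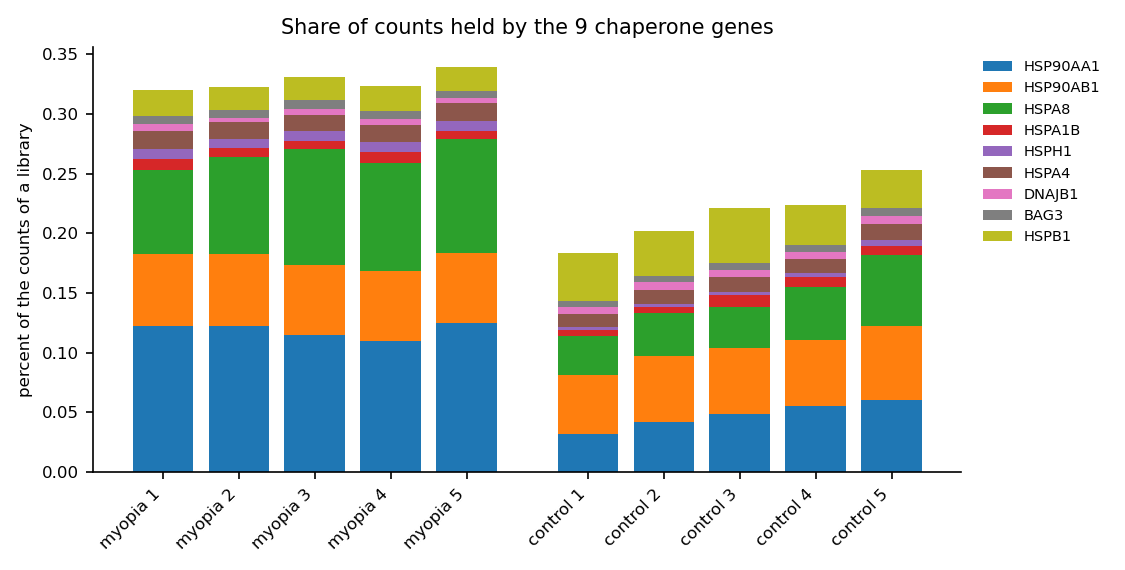
Percent of the counts of each library (vertical axis from 0) held by each of the 9 genes, stacked, for myopia libraries 1 to 5 on the left and control libraries 1 to 5 on the right. The stacks reach 0.320% to 0.339% in myopia and 0.183% to 0.253% in control, with broader HSP90AA1 and HSPA8 layers and a thinner HSPB1 layer in myopia.

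Other chaperones and co-chaperones, taken from lists written by role, also moved both ways. Of 108 distinct genes tested, 34 rose, 42 fell and 32 did not pass, which is 70.4% called, near the 71.9% of all genes, and their median log2 fold change was -0.07. With total count scaling 57 rose and 29 fell, and the median was 0.38. Without control libraries 4 and 5, 37 rose and 43 fell.

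The HSP70 family has 11 other genes here, of which 6 rose, 2 fell and 3 did not pass, and their median was 0.49 (7 higher with total count scaling). Their share called, 72.7%, was near the 71.9% of all genes. HSPA4L, the third HSP110-type exchange factor, had 39.1, 37.1, 30.9, 30.2 and 34.0 CPM in myopia, against 5.88, 5.46, 8.60, 10.2 and 11.7 CPM in control. The groups were far apart, and the log2 fold change was 2.03 ± 0.19 (adjusted p = 1.31e-06). HSPA13, an HSP70-like protein of microsomes, rose by 2.90 ± 0.41 and HSPA14, a ribosome-associated one, by 0.82 ± 0.12 on the log2 scale. In control HSPA13 was low and uneven, at 0.887 to 4.30 CPM. The mean of control libraries 4 and 5 was above that of control libraries 1 to 3 by 1.88 on the log2 scale. HYOU1, an exchange factor of the endoplasmic reticulum, and HSPA12B, an HSP70 relative of endothelium, fell by 0.50 ± 0.10 and 0.31 ± 0.08; HYOU1 did not pass with total count scaling (-0.06), and HSPA12B turned to 0.15. HSPA5 (BiP), the HSP70 of the endoplasmic reticulum, did not pass, at 478 ± 65.7 CPM in myopia and 415 ± 87.9 CPM in control (adjusted p = 0.232), but was higher with total count scaling (0.64, adjusted p = 0.00355).

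Both other HSP90 genes fell. Trap1, the mitochondrial form, had a log2 fold change of -0.86 ± 0.09 (adjusted p = 2.26e-06). HSP90B1 (GRP94), the form of the endoplasmic reticulum, had 710 ± 68.7 CPM in myopia and 1029 ± 112 CPM in control (SD, n = 5 each), a log2 fold change of -0.54 ± 0.11 (adjusted p = 0.00075), which did not pass with total count scaling (-0.08). HSP90AA1 was therefore the only one of the 4 HSP90 genes tested that was higher in myopia on the TMM scale.

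Of 9 exchange factors and BAG proteins other than the members, 7 fell and 1 rose, and the median log2 fold change was -0.87. The share called was 88.9%, beside 71.9% of all genes called and 35.1% lower. Grpel1, which serves mitochondrial HSP70, BAG6, a chaperone of membrane proteins, and Hspbp1, a cytosolic exchange factor, fell by 1.23 ± 0.13, 0.96 ± 0.09 and 1.15 ± 0.13 on the log2 scale. GRPEL2, the paralogue of Grpel1, rose by 0.68 ± 0.13. Of the cytosolic HSP110 genes HSPH1 and HSPA4L rose, whereas HSPA4, at -0.15 on the log2 scale, did not pass. With total count scaling 5 of the 9 fell and 2 rose.

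Of 41 other J-domain genes 19 rose and 12 fell (28 and 7 with total count scaling), which is 75.6% called beside 71.9% of all genes. DNAJC13, an endosomal protein, and DNAJC15, of the inner mitochondrial membrane, rose by 1.65 ± 0.12 and 1.42 ± 0.11. Dnajc11, Dnajc4 and Gak, which uncoats clathrin vesicles, had log2 fold changes of -1.30 ± 0.11, -1.21 ± 0.13 and -0.60 ± 0.08; that of Gak did not pass with total count scaling (-0.15).

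Co-chaperones of HSP70 and HSP90 split 5 higher to 6 lower among 17, and 10 to 4 with total count scaling. On the TMM scale 64.7% were called, beside 71.9% of all genes. Chordc1, an HSP90 partner, rose: it had 35.7, 33.6, 38.9, 30.6 and 36.8 CPM in myopia, against 6.55, 8.74, 8.91, 7.87 and 10.2 CPM in control. Its log2 fold change was 2.05 ± 0.12 (adjusted p = 8.80e-08). CACYBP, a calcyclin-binding protein linked to ubiquitination, rose by 1.18 ± 0.11. CDC37, which brings kinases to HSP90, fell by 1.25 ± 0.14, and Stub1 (CHIP), a ubiquitin ligase for chaperone clients, by 0.65 ± 0.07. CDC37L1, in contrast to CDC37, rose by 0.88 ± 0.12, and Nudc had a log2 fold change of -1.07 ± 0.12.

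Chaperonin and prefoldin genes, whose proteins fold actin and tubulin, split 7 lower to 3 higher among 15 (6 and 7 with total count scaling). With TMM factors this is 66.7% called, beside 71.9% of all genes. PFDN6, CCT5 and CCT7 had log2 fold changes of -1.13 ± 0.12, -0.88 ± 0.10 and -0.94 ± 0.11. Those that rose did so by little: VBP1 by 0.44 ± 0.10, Cct2 by 0.24 ± 0.09 and CCT6A by 0.20 ± 0.07. The call of CCT6A was lost without myopia 5 (0.18, adjusted p = 0.0557), and that of Cct2 without any 1 of control 1, control 3, myopia 2, myopia 3 and myopia 5 (0.20 to 0.23, adjusted p between 0.0532 and 0.0805). HSPD1 (HSP60), the mitochondrial chaperonin, had 158 ± 4.90 CPM in myopia and 171 ± 12.5 CPM in control and did not pass (adjusted p = 0.205), with a value of 0.33 under total count scaling.

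Of 8 other small heat shock proteins, 5 fell and 3 did not pass, a share called of 62.5% beside the 71.9% of all genes. Their median was -1.09 (5 lower and 1 higher with total count scaling). CRYAB (alpha B-crystallin) had 158 ± 25.4 CPM in myopia and 351 ± 49.9 CPM in control, a log2 fold change of -1.15 ± 0.13 (adjusted p = 4.84e-06). HSPB2, the neighbour of CRYAB in mammals, and HSPB7, both known from muscle, fell by 1.37 ± 0.17 and 1.34 ± 0.24. HSPB8, the partner of BAG3, did not pass, at 68.3 ± 7.22 CPM in myopia and 71.1 ± 13.7 CPM in control (adjusted p = 0.697), and its sign turned with total count scaling (0.38). CRYAB is also a lens protein: 7 lens markers summed to between 3.12 and 13.04 CPM in myopia and between 8.38 and 51.8 CPM in control, and 4 of the 5 tested were lower. Cryaa, with means of 2.10 CPM in myopia and 14.5 CPM in control, is counted in both lists. The lens sum is therefore not independent of the small heat shock proteins. Muscle carries several of these proteins: 9 skeletal muscle markers, of which 5 fell and 2 rose, summed to between 1432 and 3539 CPM in myopia and between 2331 and 5587 CPM in control. For 6 smooth muscle markers the sums were 1146 to 1788 CPM in myopia and 1313 to 2048 CPM in control, with 3 lower and 1 higher. None of these markers was at 0 in all libraries, and the part of lens and muscle in these differences was not tested.

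**Figure D5:**
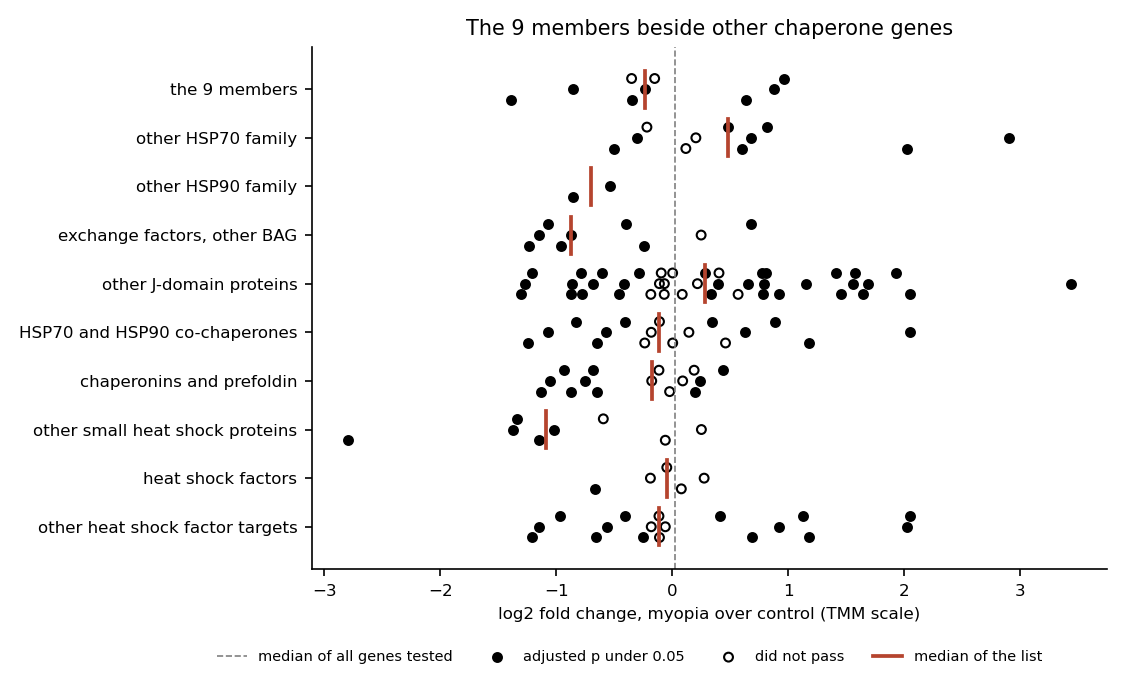
Log2 fold change, myopia over control (TMM scale), of the 9 members and of the genes in 9 further lists (points; filled where adjusted p was under 0.05), with each list's median (red bar) and the median of all genes tested (dashed, 0.03). Small heat shock proteins and exchange factors lie mostly left of the dashed line, and other HSP70 and J-domain genes spread furthest to the right.

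The transcription factors that drive the heat shock response did not pass on the TMM scale. Hsf1 had 55.7, 52.9, 47.3, 54.6 and 64.6 CPM in myopia, against 55.1, 50.6, 54.9, 53.7 and 46.1 CPM in control. The groups overlapped widely (log2 fold change 0.08 ± 0.09, adjusted p = 0.461), although with total count scaling the value was 0.53 and passed (adjusted p = 0.00033). HSF2 had 22.2 ± 1.69 CPM in myopia and 25.2 ± 3.88 CPM in control (adjusted p = 0.156), and passed as lower without control 2 (-0.25, adjusted p = 0.0478) while turning to 0.26 with total count scaling. HSBP1, a small protein that binds HSF1 and restrains it, fell by 0.67 ± 0.09 (adjusted p = 2.84e-05), the 1 call among 5 genes of this list. This is 20.0% called, beside 71.9% of all genes. The transcript level of HSF1 does not measure its activity, which is controlled on the protein.

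Of 18 other genes known in mammals as heat shock factor targets, 7 rose and 7 fell (10 and 3 with total count scaling). These are 77.8% called, beside 71.9% of all genes, and the median of the list was -0.11 (0.33 with total count scaling). Those that rose with the smallest p were Chordc1, HSPA4L and CACYBP. SERPINH1 (HSP47), the collagen chaperone, had a log2 fold change of -0.97 ± 0.12 and UBB, a polyubiquitin gene, of -1.21 ± 0.16. Neither the members nor this list moved as a block: HSPH1, HSP90AA1, HSPA4L, Chordc1 and DNAJA1 were higher, while DNAJB1, HSPB1, CRYAB, SERPINH1 and UBB were lower. DNAJA1, a J-domain partner of HSP70 named here after its value was seen, had 171 ± 10.3 CPM in myopia and 90.6 ± 15.7 CPM in control (SD, n = 5 each), a log2 fold change of 0.92 ± 0.11, the reverse of DNAJB1.

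The genes most like a member were sought by the root mean square difference of log2 CPM over the 10 libraries, each gene taken relative to its own control mean. Nearest to HSPH1 were Tnks, Mtmr3 and RAB6A, with differences of 0.063, 0.066 and 0.07. HSPB1 lay nearest to UQCRC1, Scrn2 and ABHD8 (0.067, 0.068 and 0.079), and HSPA8 to SGCE, AKTIP and Prps2 (0.083, 0.101 and 0.105). No chaperone was among these 9. Within the set, HSPH1 and HSP90AA1 were nearest to each other (0.20), and HSPA4 and BAG3 to each other (0.145), whereas the nearest member to HSPB1, DNAJB1, was 0.408 away. Each of these profiles carries the difference between the groups that the member shows.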

How the data were processed

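The authors deposited unnormalized read counts by gene symbol in 1 table, with a column per library. Per the labels' protocols, RNA was extracted with a Qiagen RNeasy kit and libraries were made with a SMARTer mRNA kit. The submitters' processing notes name mouse builds, GRCm38 and mm10, and give no role for them. The annotation, aligner and counter, and whether strand was used, were not given in the sources used here. No coordinates, gene lengths or sequences are therefore given, and motif and protein comparisons were not made. Counts of different genes are set against each other only in ratios, sums and shares within a library, which are then compared between the groups. Genes that overlap or lie antisense to each other may share reads.

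Columns were assigned to groups by library name. Of 18079 lines, 437 had no symbol (0.751% to 0.824% of counts in myopia, 1.18% to 1.69% in control) and were left out. Each other line was tested as a gene in edgeR 4.0.16 (R 4.3.3): filterByExpr (minimum count 10, minimum total 15), TMM factors, glmQLFit with robust dispersion, glmQLFTest. Of 17642 lines, 14683 were tested. Standard errors equal |log2 fold change| over the root of F. Exact permutation tests used scipy 1.17.1. Within a group no pair of libraries matched within sampling noise (chi-square over its degrees of freedom 18.1 to 117). The edgeR fit was also run on simulated counts in which few genes changed, as many up as down, so that run cannot test the choice of scaling.

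Alternatives were RLE, upper quartile and total count scaling, other filters, DESeq2 1.42.0, limma-voom (limma 3.58.1) with and without quality weights, no robust estimation, a replicate block, 1 surrogate variable (sva 3.50.0), summed lines, and omitted libraries. Members, lists and tests were chosen with earlier results of these data known. Named genes are the members, up to 3 called genes per list and direction by smallest p, 8 regulators and chaperones in any case, and the 3 genes nearest to HSPA8, HSPB1 and HSPH1; 1 gene that the rule names is not reported here.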

Additional observations from a re-analysis of the deposited data

How the results depend on the processing

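Counts of called genes kept within 1.5 times their values under all 23 alternatives, except with total count scaling. There 2752 genes in all were lower, against 5149 with TMM factors, and 2 members were lower, against 4. HSPA1B (0.10), HSPA4 (0.30), HSP90AB1 (0.10), BAG3 (0.20), HSPA12B (0.15), HSF2 (0.26), HSPD1 (0.33) and HSPB8 (0.38) turned positive there; none of these but HSPA4 and HSPD1 passed. The median log2 fold change of all genes tested was 0.03 with TMM factors, 0.0043 with RLE factors and 0.47 with total count scaling. TMM and RLE factors assume that most genes do not change, which keeps this median near 0. Which scaling gives the true direction was not tested. HSPB8, at -0.06, was also positive with upper quartile factors (0.0078) and without control libraries 4 and 5 (0.089). Leaving out 1 library at a time, HSPB8 ran from -0.12 to 0.021, and it was positive without control 3 (0.0071) and without control 5 (0.021); the cause was not tested.

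Over single-library omissions the number of members called ran from 6 to 8 and of all genes from 10133 to 10854. With RLE factors and with DESeq2 all 9 members were called, 3 higher and 6 lower, and of all genes 10569 and 10738. With a replicate block 10103 genes and 6 members were called, BAG3 being the member lost (-0.23, adjusted p = 0.0813); the call of CCT6A was lost too (0.19, adjusted p = 0.0703). No pairing by number was seen: deviations of same-numbered libraries correlated at -0.129 to 0.013, and 0 of 5 myopia libraries correlated best with the control of their own number. This check, over all genes at once, cannot exclude a weaker pairing. Of 59 further named genes, 47 kept direction and call throughout. Each member had counts of at least 872 in every library, and what limits these values was not tested.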

Other observations

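Genes of chaperone-assisted autophagy, the route that BAG3 serves with HSPB8, moved both ways: 2 of 8 rose and 4 fell (3 and 3 with total count scaling). Of the 8, 75.0% were called, near the 71.9% of all genes. Sqstm1 (p62), the receptor for ubiquitinated cargo, and MAP1LC3B, the autophagosome protein it binds, had log2 fold changes of -0.99 ± 0.11 and -1.05 ± 0.13 (adjusted p = 4.75e-06 and 1.26e-05). LAMP2, a lysosomal membrane protein, and Synpo2, an actin-associated partner of BAG3, rose by 0.80 ± 0.11 and 2.78 ± 0.41 on the log2 scale. Synpo2 was uneven in control, at 3.10 to 16.9 CPM. The filamin Flnc, a client of BAG3 in muscle, was chosen with its value known and had 112 CPM in myopia and 105 CPM in control, which did not pass (adjusted p = 0.64). FLNA, the other filamin of this list and also chosen with its value known, passed as lower (-0.29 ± 0.11, adjusted p = 0.0307). Hspb6, a small heat shock protein of the list, had a log2 fold change of -1.02 ± 0.24 (adjusted p = 0.00194).

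Immediate early genes, which respond within minutes to handling as well as to growth signals, were lower in 9 of 19 cases and higher in 2 (4 and 3 with total count scaling). That is 57.9% called, beside 71.9% of all genes called and 35.1% lower. JUND, JUNB and IER3 had log2 fold changes of -1.97 ± 0.14, -0.95 ± 0.11 and -0.97 ± 0.14, and KLF6 rose by 0.84 ± 0.11. Among the 8 that did not pass were FOS, Egr1, DUSP1 and NR4A1 (adjusted p = 0.117, 0.207, 0.0977 and 0.862). EGR2 rose by 0.77 ± 0.27, a call lost without myopia 4 (0.67, adjusted p = 0.0567) or myopia 5 (0.66, adjusted p = 0.0559). Red blood cell markers, 4 of 4 lower, summed to between 100.1 and 456 CPM in myopia and between 2503 and 10560 CPM in control. Leukocyte markers, 6 of 7 lower and 1 higher, summed to between 177 and 239 CPM in myopia and between 434 and 612 CPM in control. Their part in the chaperone differences was not tested.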
